A study of Homo sapiens with 16 samples.

Results

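The genes described here are 10 known target genes of the transcription factor NF-kappaB, taken as a list of established targets: the chemokines CXCL1, CXCL2, CXCL3, CXCL8 and CCL20, the feedback and pathway genes NFKBIA, NFKB2, TNFAIP3 and BIRC3, and the adhesion gene ICAM1. All 10 were among the 31455 gene symbols with a row, and 9 of them were among the 19818 genes with enough counts to be tested. CCL20 was the exception. The list was chosen with earlier results of these data known, so its counts beside the shares of all genes are descriptive. Polyadenylated RNA of HCT116, a human colon cancer cell line, was sequenced in 16 strand-specific libraries to compare gene expression and splicing between NORAD-depleted and wild-type cells. NORAD is an abundant cytoplasmic and nuclear long noncoding RNA linked to genome stability. The knockdown groups held 2 libraries at 24 h, 3 at 48 h and 3 at 96 h, and the wild-type groups held 2, 3 and 3 libraries at the same times. NORAD was lowered by CRISPR interference, in which a nuclease-dead Cas9 fused to a repressor blocks a promoter, and the system was switched on with 0.5 µg/ml doxycycline. The labels do not say whether wild-type cells also received doxycycline, or carried the interference system, or whether the knockdown cells were 1 clone. Nor do they tie replicates to separate cultures. The p-values thus reflect the spread among libraries, part or all of which may be technical.

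NF-kappaB dimers are held in the cytoplasm by inhibitors of the IkappaB family until a signal such as TNF, IL-1 or a bacterial product leads the IkappaB kinase (IKK) to mark the inhibitor for destruction. The freed dimer binds a short DNA motif and turns on chemokines, adhesion molecules and survival genes, and it also turns on its own inhibitors, which end the response. A slower, noncanonical branch processes the NFKB2 precursor. In intestinal epithelium the chemokines among these genes are known for drawing neutrophils and lymphocytes to the tissue during inflammation.

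Promoter stretches that match the NF-kappaB motif are shown first. The 10 genes were listed as established targets, so a high share of matches follows from the list and is not a result. CXCL1, CXCL2 and CXCL3 are closely related genes and not separate cases. RefSeq promoters (GRCh38.p14, 250 bases before to 50 bases after each gene's start) were found for all 10 genes, 12 promoters in all. The 10-letter NF-kappaB consensus, read on both strands, was present in 9 of these 12 promoters, which belong to 8 of the genes, against 5.91% of all 35116 promoters of the same length. CXCL8 and ICAM1 lacked the full consensus. The shorter GGAATTTCC, chosen after the CXCL8 promoter had been read and overlapping the consensus in 4 genes, was present in CXCL8, ICAM1, CXCL1, CXCL2, CXCL3 and NFKBIA on 1 strand or the other, against 0.461% of all promoters. A match is a description of these letters and not evidence of binding. In the windows below, printed 5′ to 3′ along the gene's own strand, capitals mark the match, which reads on the opposite strand in CCL20, NFKBIA, TNFAIP3, BIRC3 and ICAM1.
CXCL1: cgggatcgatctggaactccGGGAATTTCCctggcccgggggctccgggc
CXCL2: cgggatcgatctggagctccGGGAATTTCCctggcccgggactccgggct
CXCL3: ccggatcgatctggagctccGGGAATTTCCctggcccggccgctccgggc
CXCL8: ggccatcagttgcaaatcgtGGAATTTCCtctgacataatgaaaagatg
CCL20: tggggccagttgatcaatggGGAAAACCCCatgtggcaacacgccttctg
NFKBIA: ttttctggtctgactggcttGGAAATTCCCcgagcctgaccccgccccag
NFKB2: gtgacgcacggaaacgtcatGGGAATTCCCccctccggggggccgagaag
TNFAIP3: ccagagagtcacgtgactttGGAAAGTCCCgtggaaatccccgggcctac
BIRC3: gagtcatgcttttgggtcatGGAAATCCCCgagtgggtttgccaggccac
ICAM1: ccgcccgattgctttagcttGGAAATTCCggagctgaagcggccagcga

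The windows of CXCL1 (chr4:73869294-73869343, plus strand), CXCL2 (chr4:74099244-74099293, minus strand) and CXCL3 (chr4:74038739-74038788, minus strand) carry the same 10 bases in capitals, beginning 78 or 79 bases before the start. The CXCL8 window lies at chr4:73740458-73740506 on the plus strand, with the match beginning 91 bases before the start. The CCL20 window lies at chr2:227813743-227813792 (plus strand) and the NFKBIA window at chr14:35404801-35404850 (minus strand). NFKB2 has 2 RefSeq promoters with the consensus, and the window shown, at chr10:102394451-102394500 (plus strand), holds a match that reads on both strands. The TNFAIP3 window is at chr6:137867172-137867221, the BIRC3 window at chr11:102317265-102317314 and the ICAM1 window at chr19:10270914-10270962, all on the plus strand.

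AU-rich elements in the 3′ UTR are known to shorten the life of many inflammatory mRNAs. The nonamer TTATTTATT was found in the 3′ UTR of 6 of the 10 genes, against 8.13% of 14907 genes searched (GENCODE 29 transcripts). The genes were listed as inflammatory targets, and CXCL1, CXCL2 and CXCL3 are not separate cases, so this share is descriptive only. CXCL2 had 5 copies, CXCL1 had 3, and CXCL3, CXCL8, TNFAIP3 and BIRC3 had 1 each. CCL20, NFKBIA, NFKB2 and ICAM1 had none. The CXCL3 site is in the coding CXCL3-201, which held 28.8% of that gene's counts. One site per gene is shown for the contrast between the tandem repeats of CXCL1 and CXCL2 and the single sites of CXCL8 and TNFAIP3, with the nonamer in capitals.
CXCL1: agtcttctatTTATTTATTtattcattag
CXCL2: agtcttctatTTATTTATTtatttattta
CXCL8: atgtaaagtaTTATTTATTtgaatctaca
TNFAIP3: gtaattcactTTATTTATTttattacaaa

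Library totals lay between 28391784 and 51853876 estimated counts. NORAD (ENSG00000260032) was the check of the labels. Its level averaged 208.7 ± 29.7 CPM (counts relative to a library's scaled total) with the knockdown label and 189.9 ± 15.9 CPM in wild type at 24 h (SD, n = 2 each), 21.5 ± 3.34 and 157.8 ± 3.99 CPM at 48 h (n = 3 each), and 72.9 ± 6.87 and 182.7 ± 1.39 CPM at 96 h (n = 3 each). By edgeR, NORAD was lower at 48 h (adjusted p = 1.25e-13) and 96 h (adjusted p = 5.23e-08) but did not pass at 24 h (adjusted p = 0.522; with total-count scaling it passed there as higher, adjusted p = 0.0466), so the 24 h libraries are called labelled knockdown. Of 8 colon epithelium markers, EPCAM, KRT8, KRT18, CDH1 and CDX2 were present in every library, and VIL1, CDX1 and LGALS4 were each below 1 CPM throughout. Knockdown replicate 3 at 48 h stood apart: without it the knockdown minus wild type difference changed between times for 5049 genes, against 1874 with it.

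The chemokine RNAs were scarce, with at most 47 estimated counts per library, while NFKB2 and NFKBIA had at least 609. On a scale of counts per kilobase of transcript, made relative to the library, NFKB2 had the highest mean level over the 16 libraries (78.1, range 46.7 to 145.2), followed by NFKBIA (25.4, range 13.5 to 56.9) and ICAM1 (5.62, range 3.07 to 9.27). The ranges of NFKB2 and NFKBIA overlapped over the libraries, and both lay above that of ICAM1. TNFAIP3 averaged 1.55 and BIRC3 averaged 1.39 on this scale, and their ranges overlapped. CXCL1, CXCL8, CXCL3 and CXCL2 averaged 0.785, 0.576, 0.529 and 0.427, with ranges that overlapped one another and those of TNFAIP3 and BIRC3. CCL20, which codes for the ligand of CCR6, had 8 estimated counts over all 16 libraries and was at 0 in 10 of them, where a count of 0 allows up to 0.0595 to 0.109 CPM depending on depth (counting error only).

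**Figure D1:**
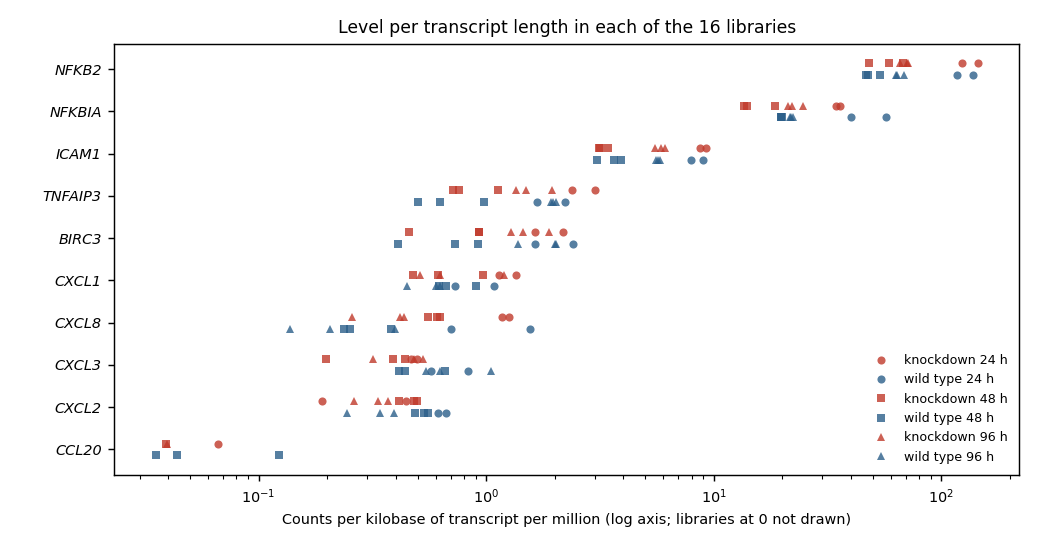
Level of each gene in each library, in counts per kilobase of transcript, relative to the library's total on that scale, on a log axis; red points are knockdown and blue points wild-type libraries, with circles for 24 h, squares for 48 h and triangles for 96 h. NFKB2 lies highest (mean 78.1) and CCL20, absent from 10 libraries, lowest.

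CXCL8 (ENSG00000169429), or interleukin 8, is the main human neutrophil chemoattractant and acts through CXCR1 and CXCR2. At 48 h it had 0.891, 1.08 and 0.733 CPM in knockdown libraries 1, 2 and 3, against 0.486, 0.297 and 0.359 CPM in wild-type libraries. All 3 knockdown libraries were above all 3 wild-type libraries, on 37, 47 and 26 estimated counts in knockdown against 16, 11 and 13 in wild type. CXCL8 was 2.38-fold higher at 48 h (log2 fold change 1.25, SE 0.34, edgeR adjusted p = 0.00691), and without knockdown replicate 3 the log2 fold change was 1.38 (edgeR adjusted p = 0.0027). In bulk RNA, a difference in how many cells hold a transcript and one in its amount per cell cannot be told apart. At 96 h it had 0.538, 0.525 and 0.392 CPM in knockdown and 0.355, 0.302 and 0.216 CPM in wild type. The groups did not overlap at 96 h, but the difference did not pass the test (log2 fold change 0.73, SE 0.35, edgeR adjusted p = 0.227). At 24 h the libraries labelled knockdown had 1.19 and 1.03 CPM, between the wild-type values of 1.32 and 0.768 CPM. The difference between times did not pass (edgeR adjusted p = 0.293), so the 48 h effect is not shown to be particular to 48 h. With scaling that depends on abundance, which was added after the data had been seen, the 48 h call was lost (log2 fold change 0.84, edgeR adjusted p = 0.0537).

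CXCL1, CXCL2 and CXCL3 code for the closely related GRO chemokines, which bind CXCR2, and reads of such near-identical genes may have been divided wrongly between them. CXCL3 (ENSG00000163734) had the lower mean with the knockdown label at each time without passing the test. Its levels at 48 h were 0.457, 0.254 and 0.366 CPM in knockdown and 0.607, 0.622 and 0.634 CPM in wild type, with no overlap (log2 fold change -0.79, SE 0.37, edgeR adjusted p = 0.111). With the abundance-dependent scaling this difference passed (log2 fold change -1.19, edgeR adjusted p = 0.0191). Most CXCL3 counts, 57.6% over all libraries, fell on CXCL3-204, a transcript annotated without a coding sequence, and 28.8% fell on the coding CXCL3-201. CXCL1 lay between 0.464 and 0.862 CPM in the knockdown libraries and between 0.408 and 0.855 CPM in the wild-type libraries. CXCL2 had 0.119 and 0.263 CPM in the libraries labelled knockdown, against 0.414 and 0.402 CPM in wild type at 24 h, on 4 to 11 estimated counts per library, and that difference did not pass (log2 fold change -1.05, SE 0.54, edgeR adjusted p = 0.22).

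NFKBIA (ENSG00000100906) codes for IkappaB-alpha, the inhibitor that is destroyed on activation and resynthesised as the first negative feedback. It was lower in the libraries labelled knockdown at 24 h, where NORAD was not lower, and in knockdown at 48 h. At 96 h NFKBIA did not pass the test. At 24 h it had 23.6 and 21.8 CPM in the libraries labelled knockdown, against 42.8 and 28.9 CPM in wild type. The 48 h values were 14.7, 17.1 and 19.2 CPM in knockdown and 23.1, 22.5 and 24.2 CPM in wild type. Those at 96 h were 23.1, 21.7 and 23.8 CPM in knockdown and 22.3, 20.9 and 21.5 CPM in wild type. The groups were apart at the first times and overlapped at 96 h. By edgeR the log2 fold change at 24 h was -0.66 (SE 0.14) with an adjusted p of 0.00215. It was -0.46 (SE 0.11) with an adjusted p of 0.00434 at 48 h, and 0.08 (SE 0.11) with an adjusted p of 0.769 at 96 h.

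The NFKBIA difference between libraries with the knockdown label and wild type changed between times (edgeR adjusted p = 0.0179). Its 96 h log2 fold change was above that at 48 h by 0.54 (SE 0.16, edgeR adjusted p = 0.0353). The 24 h call depended on which libraries were kept. When wild-type replicate 1 at 24 h, the highest of all 16 libraries for NFKBIA, was left out, the log2 fold change was -0.35 (edgeR adjusted p = 0.127), and without knockdown replicate 2 at 24 h it was -0.56 (edgeR adjusted p = 0.0673). Fitted on the 24 h libraries alone it was -0.61 (edgeR adjusted p = 0.16). The 48 h call held with each library left out in turn, with log2 fold changes from -0.55 to -0.36, the first of these without knockdown replicate 3. The difference between times fell short without wild-type replicate 2 or 3 at 96 h, knockdown replicate 2 at 24 h or knockdown replicate 3 at 96 h, with edgeR adjusted p up to 0.0686. It also did not pass with total-count scaling or with coding transcripts alone.

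**Figure D2:**
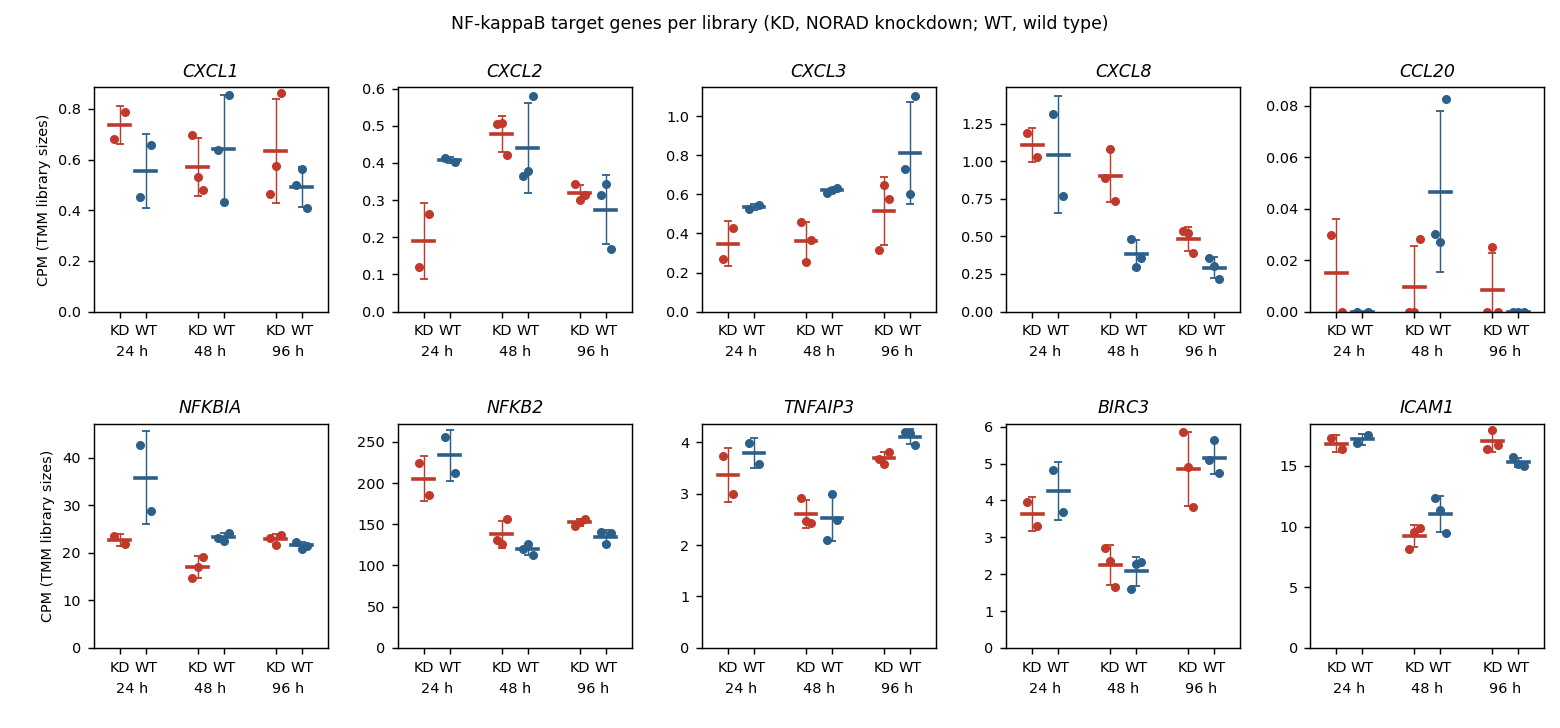
CPM of each gene in each library, with knockdown (red) left of wild type (blue) at 24 h, 48 h and 96 h; points are libraries, horizontal bars are means and vertical bars are SD (n = 2, 3 and 3). At 48 h the CXCL8 knockdown libraries (0.733 to 1.08 CPM) lie above wild type and the NFKBIA knockdown libraries (14.7 to 19.2 CPM) below it.

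NFKB2 (ENSG00000077150) codes for the p100 precursor, which both inhibits dimers and gives the p52 subunit of the noncanonical branch. It had 224.8 and 186.0 CPM in the libraries labelled knockdown, against 255.4 and 211.9 CPM in wild type at 24 h. Values at 48 h were 130.5, 126.3 and 156.2 CPM in knockdown and 119.5, 126.4 and 113.3 CPM in wild type. The lowest knockdown and the highest wild-type value all but coincided. The 96 h values were 147.6, 153.0 and 155.8 CPM in knockdown and 140.0, 125.6 and 138.9 CPM in wild type, without overlap. None of these passed: the log2 fold changes were -0.19 (SE 0.11), 0.20 (SE 0.09) and 0.17 (SE 0.09), with edgeR adjusted p = 0.307, 0.098 and 0.283. The 48 h difference passed, as higher in knockdown, with upper-quartile, total-count or abundance-dependent scaling, with coding transcripts alone, and without knockdown replicate 2, with edgeR adjusted p from 0.000715 to 0.046. Its largest knockdown value at 48 h came from replicate 3, without which the log2 fold change was 0.10.

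TNFAIP3 codes for A20, a ubiquitin-editing enzyme that shuts off signalling to IKK, and BIRC3 codes for cIAP2, a ubiquitin ligase that favours survival after TNF. Neither passed in any knockdown comparison. TNFAIP3 averaged 3.36, 2.60 and 3.69 CPM in knockdown and 3.79, 2.53 and 4.11 CPM in wild type at 24 h, 48 h and 96 h. At 96 h its 3 knockdown libraries were all below the wild-type libraries, by a log2 fold change of -0.16 (SE 0.15, edgeR adjusted p = 0.653). BIRC3 averaged 3.62, 2.24 and 4.85 CPM in knockdown and 4.26, 2.07 and 5.16 CPM in wild type, with overlap at each time and log2 fold changes between -0.23 and 0.12.

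ICAM1 (ENSG00000090339) codes for the surface ligand of the leukocyte integrins LFA-1 and Mac-1. Its 48 h values were 8.18, 9.56 and 9.92 CPM in knockdown and 12.4, 11.4 and 9.46 CPM in wild type. The third wild-type library lay among the knockdown libraries, and the difference fell just short of the threshold (log2 fold change -0.26, SE 0.10, edgeR adjusted p = 0.0549). It passed as lower without that wild-type library (edgeR adjusted p = 0.0131), without knockdown replicate 3 (edgeR adjusted p = 0.0223), with DESeq2's size factors (edgeR adjusted p = 0.049) and in DESeq2's own test (DESeq2 adjusted p = 0.0472). At 96 h it had 16.4, 18.0 and 16.7 CPM in knockdown, above 15.7, 15.1 and 15.0 CPM in wild type, with a log2 fold change of 0.16 (SE 0.10, edgeR adjusted p = 0.404).

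**Figure D3:**
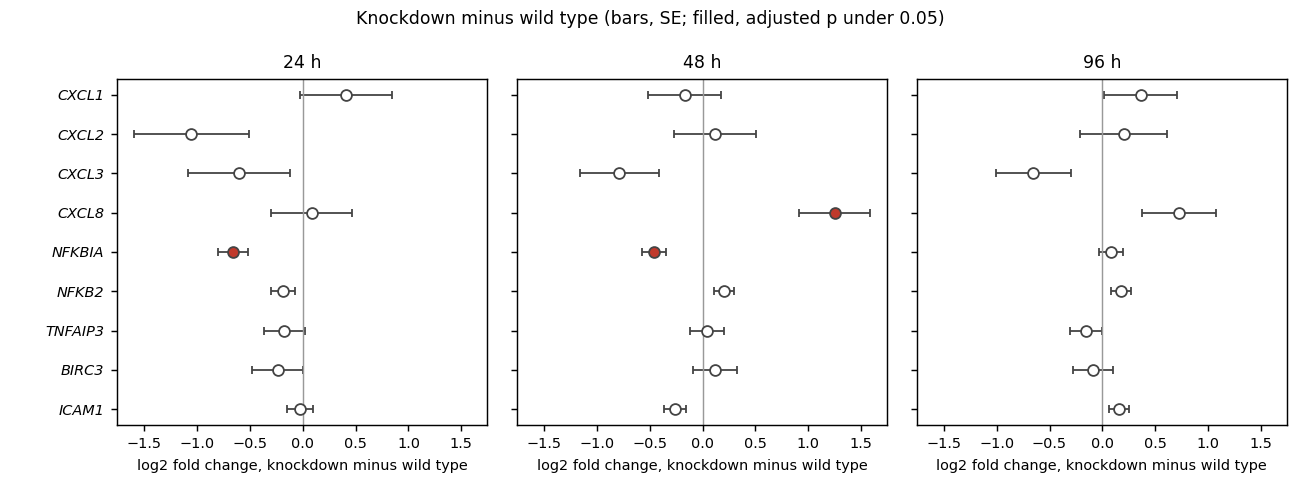
Log2 fold change of knockdown minus wild type for the 9 tested genes at 24 h, 48 h and 96 h, with SE bars; filled points passed at an edgeR adjusted p under 0.05. NFKBIA is filled at 24 h (-0.66) and 48 h (-0.46), CXCL8 at 48 h (1.25), and no gene at 96 h.

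In all, 1 of the 9 tested genes passed at 24 h (NFKBIA, lower), against 17.6% of all genes tested (5.16% higher, 12.4% lower). At 48 h 2 passed, CXCL8 higher and NFKBIA lower, against 33.2% of all genes (14.8% higher, 18.5% lower). At 96 h 0 of the 9 passed with edgeR, with 0 at an unadjusted p under 0.05 and 0 of the 5 to which DESeq2 gave an adjusted p, against 10.5% of all genes (5.36% higher, 5.15% lower). For the difference between times 1 passed (NFKBIA), against 9.46% of all genes. The medians of the 9 log2 fold changes were -0.19 at 24 h, 0.04 at 48 h and 0.16 at 96 h, beside -0.02, 0.06 and -0.01 over all genes tested. Both signs occurred at each time, and at 48 h 5 of the 9 log2 fold changes were above 0 and 4 below.

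In wild-type cells more of these genes passed between times than between genotypes, as did more of all genes. Between 24 h and 48 h, 6 of 9 were lower at 48 h, against 22.1% of all genes lower, 22.5% higher and 44.6% changed in all. The log2 fold changes at 48 h against 24 h were -1.45 (SE 0.37) for CXCL8, -1.03 (SE 0.23) for BIRC3, -0.96 (SE 0.10) for NFKB2, -0.64 (SE 0.11) for ICAM1, -0.62 (SE 0.13) for NFKBIA and -0.58 (SE 0.18) for TNFAIP3. Their edgeR adjusted p lay between 1.24e-07 (NFKB2) and 0.0117 (TNFAIP3), and every 48 h wild-type library was below every 24 h wild-type library for each. The share of all genes so separated is not given here, and a separation of 3 libraries from 2 adds little to the calls. Without wild-type replicate 1 at 24 h, 3 of the 6 calls were lost (CXCL8, NFKBIA and TNFAIP3, edgeR adjusted p = 0.115, 0.0828 and 0.117), and TNFAIP3 also lost its call without wild-type replicate 1 at 48 h (edgeR adjusted p = 0.0566). With coding transcripts alone the NFKBIA log2 fold change was -0.33 (edgeR adjusted p = 0.0458). CXCL1, CXCL2 and CXCL3 did not pass, with log2 fold changes between 0.11 and 0.21. Summed levels of markers of other cells were lower in the same comparison, with the leukocyte sum mostly CD68 and the fibroblast sum nearly all COL1A1. The 8 leukocyte markers summed to 11.5 to 14.7 CPM at 48 h and 51.6 to 57.1 CPM at 24 h. The 6 fibroblast markers summed to 34.1 to 35.1 CPM at 48 h and 56.5 to 70.9 CPM at 24 h. The 4 endothelium markers with a row summed to 0.524 to 0.789 CPM at 48 h and 2.18 to 2.60 CPM at 24 h. Of these markers CD68, CSF1R, COL1A1, COL1A2, PDGFRB, CDH5 and VWF passed as lower by edgeR, and ITGAM and LYZ as higher. The 8 colon epithelium markers had a higher sum at 48 h, 4605 to 4836 CPM against 3837 to 4046 CPM at 24 h. Of them CDX2, KRT18, KRT8 and EPCAM passed as higher by edgeR and CDH1 as lower. The part of all these markers in the result was not tested.

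At 96 h, 3 of 9 were higher than at 48 h in wild type, against 23.7% of all genes higher, 22.7% lower and 46.5% changed in all. BIRC3 was higher by a log2 fold change of 1.31 (SE 0.20, edgeR adjusted p = 1.28e-05), TNFAIP3 by 0.70 (SE 0.16, edgeR adjusted p = 0.0009) and ICAM1 by 0.47 (SE 0.10, edgeR adjusted p = 0.000584). CXCL8 and NFKBIA did not pass between 48 h and 96 h, with log2 fold changes of -0.37 (SE 0.36) and -0.11 (SE 0.11). NFKB2, at 0.17 (SE 0.09, edgeR adjusted p = 0.137), passed as higher with upper-quartile, total-count or abundance-dependent scaling and with the compared groups alone (edgeR adjusted p from 0.000488 to 0.0205). The labels name no batch, so time and any batch that goes with the time points cannot be told apart. Of the 87 other listed genes tested, described below, 21 were higher and 25 lower in wild type at 48 h against 24 h. That is 52.9% in all, against 44.6% of all genes, and the median log2 fold change of the 87 was 0.01. IL32, a cytokine gene induced by NF-kappaB and 1 of the 25, had 206.1 and 102.7 CPM in the libraries labelled knockdown, against 750.1 and 266.9 CPM in wild type at 24 h, and 0.668 CPM or less in each later library. Its log2 fold change in wild type at 48 h against 24 h was -10.66 (SE 0.61, edgeR adjusted p = 1.28e-07). It was also lower in the libraries labelled knockdown at 24 h (log2 fold change -1.72, SE 0.42, edgeR adjusted p = 0.0163), a call lost without wild-type replicate 1 (log2 fold change -0.79, edgeR adjusted p = 0.136), without knockdown replicate 2 (-1.26, edgeR adjusted p = 0.159) and with the 24 h libraries alone (edgeR adjusted p = 0.337).

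**Figure D4:**
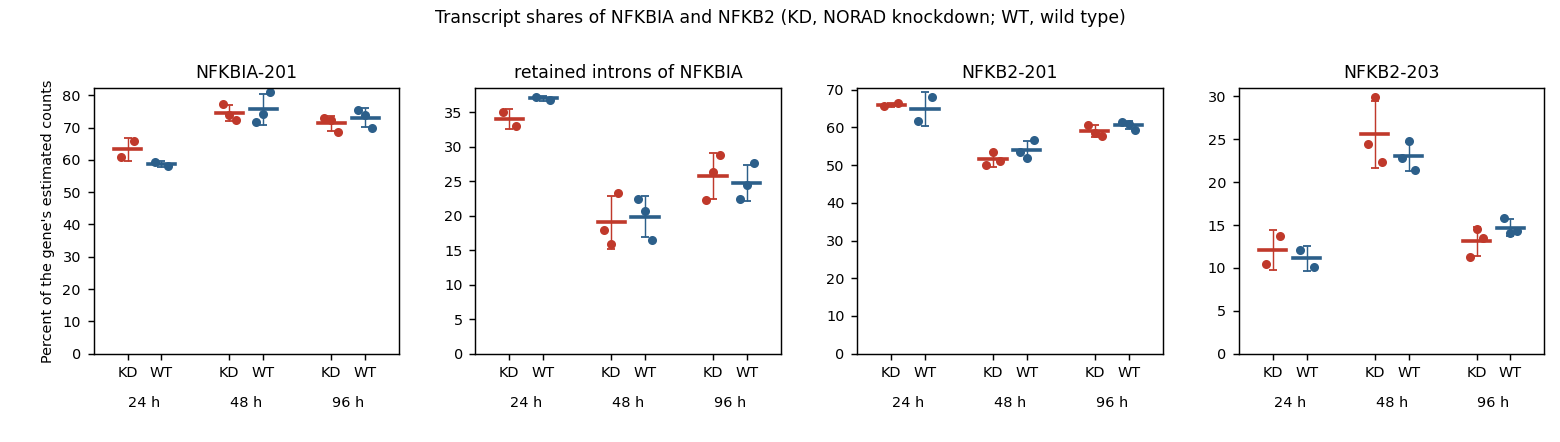
Share of each gene's estimated counts, in percent, held by the main NFKBIA transcript, by NFKBIA transcripts with retained introns and by the coding transcripts NFKB2-201 and NFKB2-203; knockdown (red) is left of wild type (blue) at each time, points are libraries and bars are mean and SD. Retained-intron NFKBIA transcripts hold 33.0% to 37.2% at 24 h and less in every later library, and NFKB2-203 holds 21.4% to 29.9% at 48 h.

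The transcript makeup of NFKBIA and NFKB2 differed between times in both genotypes. These shares are estimates of the counting model and were not tested. Retained-intron transcripts held 35.0% and 33.0% of NFKBIA counts in the libraries labelled knockdown, against 37.2% and 36.8% in wild type at 24 h. At 48 h they held 17.9%, 15.9% and 23.4% in knockdown and 22.4%, 20.7% and 16.5% in wild type. At 96 h they held 22.3%, 26.3% and 28.8% in knockdown and 22.4%, 24.4% and 27.6% in wild type. Knockdown and wild type overlapped at 48 h and 96 h, and at 24 h the libraries labelled knockdown were the lower pair. With coding transcripts alone NFKBIA was lower by edgeR at 24 h (log2 fold change -0.53, adjusted p = 0.0171) and 48 h (-0.35, adjusted p = 0.0305).

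NFKB2-203, a coding transcript, held 10.4% and 13.7% of NFKB2 counts in the libraries labelled knockdown, against 12.1% and 10.1% in wild type at 24 h. At 48 h it held 24.4%, 29.9% and 22.4% in knockdown and 22.8%, 24.8% and 21.4% in wild type, and at 96 h 11.3%, 14.6% and 13.5% in knockdown and 15.8%, 14.1% and 14.3% in wild type. Each 48 h library was above every 24 h and 96 h library, in both genotypes. Of the other genes, ICAM1 counts fell almost wholly on ICAM1-201 (97.4% over all libraries), TNFAIP3 counts on TNFAIP3-201 (90.8%) and BIRC3 counts on BIRC3-201 (69.7%) and BIRC3-206 (22.4%).

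Another 106 genes were listed beside the 10. They are not the pathway alone. Beside pathway genes and other targets they include 9 genes for proteins that bind AU-rich elements and 7 receptors of the chemokines and of ICAM1. Of the 106, 87 were tested. In knockdown against wild type 6 were higher and 12 lower at 24 h (20.7% in all), 12 higher and 18 lower at 48 h (34.5%), and 8 higher and 6 lower at 96 h (16.1%). Over all genes tested the shares were 17.6% (5.16% higher, 12.4% lower), 33.2% (14.8% higher, 18.5% lower) and 10.5% (5.36% higher, 5.15% lower). The same shares stand beside the counts of each list below. Without knockdown replicate 3 at 48 h, 26, 46 and 19 of the 87 passed (29.9%, 52.9% and 21.8%), against 23.0%, 44.8% and 15.5% of all genes. Among the other NF-kappaB subunits 1 of 4 passed at 48 h and 0 at the other times, but without knockdown replicate 3 at 48 h it was 3 of 4 at 48 h (NFKB1 and RELA lower, REL higher) and 1 at 24 h (NFKB1, lower). NFKB1, the precursor of p50, had 31.5 ± 3.64 CPM in knockdown and 40.3 ± 1.08 CPM in wild type at 48 h (SD, n = 3 each), a log2 fold change of -0.36 (SE 0.09, edgeR adjusted p = 0.00371). At 24 h it fell just short (log2 fold change -0.31, edgeR adjusted p = 0.0504) and passed without knockdown replicate 2 or 3 at 48 h, without knockdown replicate 2 at 96 h and with the 24 h libraries alone. RELA, which codes for the p65 subunit, had 103.4 ± 14.4 CPM in knockdown and 110.4 ± 4.75 CPM in wild type at 48 h and did not pass (log2 fold change -0.09, edgeR adjusted p = 0.401). Without knockdown replicate 3 at 48 h its log2 fold change was -0.21 and passed (edgeR adjusted p = 0.0147), as did its difference between times (edgeR adjusted p = 0.0435). RELA was named after its values were seen.

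Of the other IkappaB genes, 2 of 5 were lower at 24 h and 2 of 5 at 48 h, BCL3 and NFKBIB both times, and 0 at 96 h. Over all genes 12.4%, 18.5% and 5.15% were lower at the 3 times. Without knockdown replicate 3 at 48 h all 5 passed at 48 h, against 44.8% of all genes, with NFKBIE also lower and NFKBID and NFKBIZ higher. NFKBIB, coding for IkappaB-beta, had 68.2, 70.5 and 72.1 CPM in knockdown and 100.1, 94.7 and 88.6 CPM in wild type at 48 h (log2 fold change -0.43, SE 0.08, edgeR adjusted p = 0.000208). All of its knockdown libraries were below the wild-type libraries, as for NFKBIA. The 24 h call of NFKBIB was lost with total-count scaling (edgeR adjusted p = 0.0657) and with coding transcripts alone (edgeR adjusted p = 0.296). BCL3, a nuclear IkappaB that works with p50 and p52, had 27.2 and 23.7 CPM in the libraries labelled knockdown, against 44.3 and 37.7 CPM in wild type at 24 h (log2 fold change -0.69, SE 0.14, edgeR adjusted p = 0.0014), and the call was lost without knockdown replicate 2 at 24 h (edgeR adjusted p = 0.06). At 48 h its call was lost with upper-quartile or total-count scaling, without knockdown replicate 1 or 2 and without wild-type replicate 2, with edgeR adjusted p from 0.0514 to 0.073. Of the 3 IKK genes, the kinase gene CHUK was lower at 24 h and 48 h and the kinase gene IKBKB higher at 48 h. CHUK had a log2 fold change of -0.40 (SE 0.10, edgeR adjusted p = 0.00452) at 48 h, and at 24 h its call was lost without knockdown replicate 2 or wild-type replicate 2 (edgeR adjusted p = 0.2 and 0.15) and with total-count scaling (log2 fold change -0.30 against -0.50, edgeR adjusted p = 0.109). IKBKB, with 0.35 (SE 0.10, edgeR adjusted p = 0.00884) at 48 h, lost its call with coding transcripts alone (edgeR adjusted p = 0.785) and without wild-type or knockdown replicate 1 at 48 h (edgeR adjusted p = 0.0546 and 0.0515). At 24 h IKBKB did not pass (edgeR adjusted p = 0.0563) but passed as higher under 11 of the alternatives, among them DESeq2 (DESeq2 adjusted p = 0.0239).

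Of 18 adaptors and kinases tested, 2 were higher at 24 h, 1 was higher and 1 lower at 48 h, and 1 was higher at 96 h. Without knockdown replicate 3 at 48 h the numbers were 2 higher and 2 lower at 24 h, 2 higher and 8 lower at 48 h, and 4 higher at 96 h. Over all genes 17.6%, 33.2% and 10.5% passed at the 3 times, and 23.0%, 44.8% and 15.5% without that library. MYD88, the adaptor of Toll-like and IL-1 receptors, was higher at 24 h (log2 fold change 0.63, SE 0.12, edgeR adjusted p = 0.00113), and TRADD, the adaptor of TNF receptor 1, at 96 h (0.38, SE 0.08, edgeR adjusted p = 0.00251). Of 12 receptors tested, 2 were higher at 24 h, 6 higher and 1 lower at 48 h, and 4 higher at 96 h. Over all genes 5.16%, 14.8% and 5.36% were higher and 12.4%, 18.5% and 5.15% lower at these times. Without knockdown replicate 3 at 48 h, 4 receptors were higher and 2 lower at 48 h. There CD40 and IL1RAP lost their calls and TNFRSF1A passed as lower. TLR3, a sensor of double-stranded RNA, had 2.34 and 2.70 CPM in the libraries labelled knockdown, against 0.903 and 1.13 CPM in wild type at 24 h (log2 fold change 1.31, SE 0.25, edgeR adjusted p = 0.000953). IL17RC, a subunit of the IL-17 receptor, was higher at 48 h (0.54, SE 0.08, edgeR adjusted p = 5.06e-05), a call lost with coding transcripts alone (edgeR adjusted p = 0.165). TNFRSF12A, the receptor of TWEAK, was higher at 96 h (0.57, SE 0.09, edgeR adjusted p = 0.00018). Of the 8 other negative regulators 1 was lower at 24 h (OTULIN) and 1 at 48 h (TNIP2), or 3 at 48 h without knockdown replicate 3 (TNIP2, ITCH and RNF11).

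Of 6 ligand genes tested, 0 passed at 24 h, 2 were higher at 48 h and 1 at 96 h. Over all genes 5.16%, 14.8% and 5.36% were higher at these times. IL18, an epithelial cytokine, had 41.0 ± 2.39 CPM in knockdown and 32.9 ± 0.561 CPM in wild type at 48 h, and 82.7 ± 3.01 and 60.9 ± 1.57 CPM at 96 h (SD, n = 3 each), with log2 fold changes of 0.32 (SE 0.07) and 0.44 (SE 0.07) and adjusted p of 0.00127 and 0.000133 by edgeR. LTA, coding for lymphotoxin alpha, was at 0.674, 0.461 and 0.366 CPM in knockdown and 0.182, 0.135 and 0.165 CPM in wild type at 48 h (log2 fold change 1.63, SE 0.42, edgeR adjusted p = 0.00501). These wild-type values lay not far above the 0.0595 to 0.109 CPM that a count of 0 allows, so this fold rests on few counts. TNF itself, named after its values were seen, was not tested and did not exceed 0.0784 CPM in any library. The receptors of the chemokines and of ICAM1 (CXCR1, CXCR2, CCR6, ITGAL, ITGAM, ITGB2 and ACKR1) were low, and 0 of the 5 tested passed with edgeR in a knockdown comparison, with 1, 0 and 2 at an unadjusted p under 0.05.

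Among 17 other NF-kappaB target genes tested, 1 was higher and 5 lower at 24 h, 2 higher and 6 lower at 48 h, and 2 higher and 3 lower at 96 h. Over all genes 5.16%, 14.8% and 5.36% were higher and 12.4%, 18.5% and 5.15% lower at the 3 times. TNFAIP2 was the gene higher at 24 h, and TNFAIP2 and PTGS2 were those at 48 h. Without knockdown replicate 3 at 48 h, 3 were higher and 6 lower at 48 h. There PTGS2 and SOD2 lost their calls, CFLAR and CX3CL1 passed as higher and BCL2L1 as lower. IER3, an immediate early survival gene, had 548.9 and 461.2 CPM in the libraries labelled knockdown, against 874.4 and 755.3 CPM in wild type at 24 h (log2 fold change -0.69, SE 0.11, edgeR adjusted p = 0.000213). GADD45B, a stress response gene, had 35.6 and 29.9 CPM in the libraries labelled knockdown, against 64.0 and 50.2 CPM in wild type at 24 h (log2 fold change -0.80, SE 0.13, edgeR adjusted p = 0.000293). At 48 h LIF, a cytokine gene, had 16.3, 12.8 and 14.1 CPM in knockdown and 24.7, 26.5 and 24.3 CPM in wild type (log2 fold change -0.80, SE 0.09, edgeR adjusted p = 2.07e-06). PLAU, the urokinase gene, had 16.8, 14.4 and 9.27 CPM in knockdown and 27.2, 29.8 and 25.6 CPM in wild type at 48 h (log2 fold change -1.02, SE 0.15, edgeR adjusted p = 6.1e-05). At 96 h SDC4, coding for syndecan 4, was higher (0.49, SE 0.09, edgeR adjusted p = 0.000901).

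Of 9 genes for proteins that bind AU-rich elements, 1 was higher and 3 lower at 24 h, 5 were lower at 48 h and 3 at 96 h. Of all genes 12.4%, 18.5% and 5.15% were lower at the 3 times, and 5.16% were higher at 24 h. ZFP36L1, which speeds the decay of AU-rich mRNAs, had 164.1, 156.0 and 194.6 CPM in knockdown and 349.5, 361.2 and 356.4 CPM in wild type at 48 h (log2 fold change -1.05, SE 0.08, edgeR adjusted p = 9.26e-09). HNRNPD, coding for the AU-binding protein AUF1, was lower at 48 h by a log2 fold change of -0.60 (SE 0.08, edgeR adjusted p = 1.14e-05).

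The genes with profiles most like CXCL8 over the 6 group means, by the root mean square difference of centred log2(CPM + 0.5) among 11044 genes, were MPZL3 (0.055), MBD6 (0.07) and LINC00910 (0.09). The added 0.5 flattens the profile of a gene as low as CXCL8. MPZL3 averaged 22.3, 20.9 and 15.2 CPM in knockdown and 22.1, 12.9 and 11.8 CPM in wild type at 24 h, 48 h and 96 h. The genes most like NFKBIA were GCAT (0.09), SNAI1 (0.1) and TRABD2A (0.1). SNAI1 averaged 24.3, 16.6 and 19.9 CPM in knockdown and 33.9, 20.5 and 19.6 CPM in wild type at the 3 times.

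Markers of other cell types also differed between the groups. The summed level of 8 leukocyte markers lay between 39.7 and 47.8 CPM in the libraries labelled knockdown and 51.6 and 57.1 CPM in wild type at 24 h. It lay between 16.6 and 18.7 CPM in knockdown and 11.5 and 14.7 CPM in wild type at 48 h, and between 28.5 and 33.6 CPM in knockdown and 17.1 and 22.5 CPM in wild type at 96 h. Most of it was CD68, which passed by edgeR as lower at 24 h and higher at 96 h and averaged 37.4, 11.5 and 27.1 CPM in knockdown and 49.7, 10.1 and 14.8 CPM in wild type at the 3 times. PTPRC, the general leukocyte marker, stayed at or below 0.263 CPM in every library. The 6 fibroblast markers, nearly all from COL1A1, summed to 77.5 to 79.3 CPM in the libraries labelled knockdown and 56.5 to 70.9 CPM in wild type at 24 h. At 48 h they summed to 62.0 to 80.6 CPM in knockdown and 34.1 to 35.1 CPM in wild type, with LUM at 0, and at 96 h to 44.3 to 48.8 CPM in knockdown and 39.3 to 49.3 CPM in wild type. The 8 colon epithelium markers summed to 3156 to 3386 CPM in the libraries labelled knockdown and 3837 to 4046 CPM in wild type at 24 h, and to 2980 to 3573 CPM in knockdown and 4605 to 4836 CPM in wild type at 48 h. At 96 h the knockdown sums, 3389 to 3571 CPM, were above the wild-type sums of 2960 to 3214 CPM. The part of these markers in the chemokine and NFKBIA results was not tested.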

How the data were processed

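The authors deposited whole-number estimated counts for each transcript in 16 libraries of HCT116 cells. Every one of the 18 values with at least 7 digits ends in 0, which shows rounding of large values. Per the submitters' processing notes kallisto, DESeq2 and hg19 were used. Versions, index and filters are not given in sources used here. kallisto assigns reads to matching transcripts by a statistical model, so reads of the near-identical CXCL1, CXCL2 and CXCL3 may have been divided wrongly. Groups and replicate numbers came from the sample titles.

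Of 166096 transcripts, 156583 matched GENCODE 29 by identifier and were summed to 31455 gene symbols. The other 9513 held 2.746% to 3.398% of a library's counts and were left out. Testing used edgeR 4.0.16 (R 4.3.3) and the rounded gene sums with filterByExpr, TMM scaling (trimmed mean of M-values), 1 mean per group over all 16 libraries, robust glmQLFit and glmQLFTest (10 residual degrees of freedom), with Benjamini-Hochberg adjustment over 19818 genes and a threshold of 0.05. CPM values use TMM library sizes. Levels per kilobase use annotated transcript lengths, rescaled to the same sum in each library. DESeq2 1.42.0, other scalings, filters and left-out libraries were alternatives. Each replicate pair exceeded sampling noise, with chi-square per degree of freedom between 8.79 and 69.3, and all libraries were kept apart. On counts simulated for 19818 genes, with 200 changed, the test found 44%, 44% and 52% of 1.5-fold changes (24 h, 48 h, 96 h) and 68%, 60% and 68% of 2-fold changes. False calls made up 2.61%, 2.80% and 4.76%. The simulated share of changed genes was far below the share called in the data, and no simulated library stood apart. These rates thus need not hold for the data.

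The 10 genes and the other lists were chosen with earlier results of these data known. The rule for naming genes took the 10 genes, NORAD, receptors of their products, passing members of each list (up to 6 per list and comparison, lowest p first, of which the text gives the first few), and the 3 genes most like CXCL8 and NFKBIA with a mean of at least 5 CPM. RELA, TNF and the cell markers fall outside it. Promoters are RefSeq's (GRCh38.p14), and 3′ UTRs of at least 20 bases came from GENCODE 29 transcripts.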

Additional observations from a re-analysis of the deposited data

Results flagged for a closer look

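Besides NORAD, the knockdown minus wild type difference changed between 24 h, 48 h and 96 h for 11 of the genes named. This is by edgeR's F test of the 3 differences, adjusted over all genes tested. NORAD itself passed (edgeR adjusted p = 7.97e-10), though it was not lower at 24 h. Of all genes tested 9.46% passed. Many named genes had been picked for passing a knockdown comparison in these data, so their number cannot be set against that share. Of the 10 listed targets NFKBIA alone passed (edgeR adjusted p = 0.0179), with log2 fold changes of -0.66, -0.46 and 0.08 at the 3 times. Of the other targets, PLAU (edgeR adjusted p = 0.000864) was lower at 48 h only by the test at each time, GADD45B (edgeR adjusted p = 0.00108) and IER3 (edgeR adjusted p = 0.00467) were lower at 24 h, and SDC4 (edgeR adjusted p = 0.0197) was higher at 96 h. ZFP36L1 (edgeR adjusted p = 0.00106) was lower at each time, with log2 fold changes of -0.50, -1.05 and -0.35, the first lost without knockdown replicate 2 at 24 h. NFKBIB gave an edgeR adjusted p of 0.0113, with -0.47, -0.43 and 0.02. Among receptors and adaptors, the values were 0.00463 for TNFRSF12A, 0.00835 for TRADD, 0.00909 for MYD88 and 0.00993 for TLR3. The cause was not tested for any of them. The between-time calls of IER3, TLR3, NFKBIB, SDC4 and NFKBIA were each lost with some library left out. That of NFKBIA was also lost with total-count scaling and with coding transcripts alone.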

How the results depend on the processing

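Over the 9 tested genes and the alternatives tried, no direction of a call reversed, and 1298 recomputed tests, the difference between times included, stayed on the same side of the threshold, 15 lost a call and 16 gained one. The number passing at 24 h was 0 with the compared groups' libraries alone and 0 to 1 with each library left out. At 48 h it was 2 to 3. At 96 h it was 1 (NFKB2) with the compared groups alone. For the effect between times it was 0 with total-count scaling or coding transcripts alone and 0 to 2 with libraries left out, the 2 being NFKBIA and ICAM1 without knockdown replicate 3 at 48 h. For wild type at 48 h against 24 h it was 3 to 6, lowest without wild-type replicate 1 at 24 h.

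Over all genes the calls ranged with libraries left out from 1506 to 4558 at 24 h, 1240 to 3071 at 96 h and 1052 to 5049 between times. With the compared groups alone they were 4069 at 48 h and 3452 at 96 h, and DESeq2 gave 2845 between times. Total-count scaling moved the median of all genes by 0.21 at 24 h and 0.14 at 48 h, and upper-quartile scaling by 0.12 at both. The share of calls that were higher was 29.3% at 24 h, 44.5% at 48 h and 51.1% in wild type at 96 h against 48 h, and with total-count scaling 75.3%, 68.9% and 58.9%. With upper-quartile scaling it was 53.8% at 24 h and 64.2% at 48 h, and with abundance-dependent scaling, chosen after seeing the data, 49.2% at 24 h. With coding transcripts alone IL17RC turned to -0.025 at 96 h and ITGB2 to 0.28 in wild type at 48 h against 24 h, neither passing. Some called log2 fold changes moved by over 1.5 times and still passed. With abundance-dependent scaling IER3 was -0.39 at 24 h, HNRNPD -0.38 at 48 h and TNFAIP3 0.46 in wild type at 96 h against 48 h. With total-count scaling NFKB1 was -0.22 and CHUK -0.26 at 48 h. LTA was 3.42 at 48 h with coding transcripts alone. The cause was not tested.

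Replicate numbers did not pair the libraries (same-numbered deviations correlated by -0.34 to 0.04). With the replicate block 901 genes passed between times and 5659 in wild type at 96 h against 48 h. Among the 9 genes the block ended only TNFAIP3's call in wild type at 48 h (edgeR adjusted p = 0.0542), and it ended the between-time calls of NFKBIB (edgeR adjusted p = 0.0682) and TLR3 (edgeR adjusted p = 0.0527).

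Depth limits the chemokines: CXCL2 had as few as 4 estimated counts and CCL20 had 0 in 10 libraries. Of simulated 1.5-fold changes 44% to 52% were found over genes of all levels together, which gives no rate for genes as scarce as the chemokines.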
